A study of Mus musculus with 23 samples.

Results

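The S100 alarmins described here are 6 genes, *S100a8*, *S100a9*, *S100a6*, *S100a11*, *S100a4* and *S100a10*. They were taken by name, not by their values, and were matched by NCBI gene identifier in the tables of sorted neutrophils and by symbol in the table of whole lung. They are 6 of the 21878 genes listed for sorted neutrophils and 6 of the 55335 listed for whole lung. S100 proteins are small proteins of the EF-hand type that work as dimers. Most of them bind calcium and change shape when it rises, so that they can grip partner proteins. S100A8 and S100A9 pair as calprotectin, an abundant cytosolic complex of neutrophils that withholds zinc and manganese from microbes and, once released, acts as an alarmin on TLR4 and RAGE. The other members are best known inside cells, where S100A10 holds annexin A2, S100A11 holds annexin A1, S100A6 binds annexins and the calcyclin-binding protein, and S100A4 binds the heavy chain of nonmuscle myosin IIA.

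Bulk RNA-Seq was available for 23 libraries of 3 experiments. In the tissue comparison, CD45+CD11b+Ly6G+ neutrophils were sorted from perfused lung, peripheral blood (PB) and bone marrow (BM) of WT mice, with 3 libraries per tissue. In the *Piezo1* experiment, neutrophils of the 2 genotypes, WT and *Piezo1*-cKO, came from lung and from PB, with 2 libraries per group. In the depletion experiment, anti-Ly6G antibody was injected into mice, and isotype antibody into controls, before the whole lung was taken without sorting, with 3 libraries per group. The labels call the control mice WT and name no genotype for the depleted mice. The study introduces its depletion work, on endothelial proliferation, as done at an early age. *Piezo1*-cKO mice carry *Piezo1* fl/fl and Vav1-iCre, a Cre that is active across blood cell lineages, so the deletion is not restricted to neutrophils. The study's methods name C57BL/6J mice and young adult animals of both sexes. Neither the age of the animal behind a library nor whether WT animals of the *Piezo1* experiment carried the floxed alleles is given in the sources used here. The study describes the libraries of the tissue comparison as coming from separate mice, without saying whether a mouse gave more than 1 tissue. For the other experiments neither the labels nor the study say whether replicates are separate animals, so their p values measure the spread between these libraries, which may be technical.

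Sorted libraries held 9621088 to 19330794 reads assigned to genes. All 6 of the 6 fixed neutrophil markers reached a mean FPKM of at least 1 in every sorted group, where FPKM scales the fragments of a gene by its length and by the assigned fragments of the library. Their summed level was lowest in lung (4350 to 4527 FPKM) and highest in BM (13659 to 14686 FPKM) of the tissue comparison. Monocyte and macrophage markers summed to 186 to 798 FPKM in sorted tissue libraries, with 3 of 7 markers at a mean of at least 1, and epithelial markers summed to at most 6.65 FPKM in any sorted library. In whole lung, epithelial markers summed to 63802 to 98925 FPKM, and *Ly6g*, the defining neutrophil marker, was at or below 0.577 FPKM in every library. The targeted gene could not check the genotype labels: *Piezo1* had 8 and 8 reads in lung WT, 7 and 4 in lung *Piezo1*-cKO, 5 and 5 in PB WT and 3 and 10 in PB *Piezo1*-cKO, counted over the whole gene and not over the floxed exons.

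All 6 genes lie on mouse chromosome 3 (GRCm38.p6), in a pair of clusters. *S100a4* (chr3:90603770-90606045), *S100a6* (chr3:90612894-90614414), *S100a8* (chr3:90669071-90670034) and *S100a9* (chr3:90692630-90695721) follow each other with gaps of 6.85, 54.7 and 22.6 kb. *S100a11* (chr3:93520496-93526288) and *S100a10* (chr3:93555117-93564645) stand 2.82 Mb further on, 28.8 kb apart. S100a5 lies between *S100a4* and *S100a6*, with a mean of at most 0.0261 FPKM in every group. Genes close together on the chromosome were far apart in level, and in lung neutrophils *S100a4* averaged 1.76 FPKM against 1031 FPKM for *S100a6*.

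RefSeq promoters of GRCm38.p6 were matched for 5 of the 6 members, all but *S100a10*. The 250 bases before the start site are shown for 4 genes that span the range of levels in neutrophils: *S100a8* and *S100a9*, the top pair of the transcriptome, *S100a11* at intermediate level, and *S100a4*, which was nearly silent. Capitals mark matches to 4 motifs searched on both strands. The TATA box was searched as TATAAA and the C/EBP-type motif as TTNNGNAA. An E-box was any match to CANNTG, and the motif of the PU.1 type was searched as AGGAAG. In these windows no matches overlap.
*S100a8* (chr3:90668821-90669070, plus strand): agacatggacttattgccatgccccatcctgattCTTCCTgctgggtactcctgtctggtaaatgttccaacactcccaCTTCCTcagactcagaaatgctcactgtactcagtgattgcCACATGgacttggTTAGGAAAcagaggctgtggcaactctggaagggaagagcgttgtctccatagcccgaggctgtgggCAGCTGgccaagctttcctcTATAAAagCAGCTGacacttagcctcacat
*S100a9* (chr3:90695722-90695971, minus strand): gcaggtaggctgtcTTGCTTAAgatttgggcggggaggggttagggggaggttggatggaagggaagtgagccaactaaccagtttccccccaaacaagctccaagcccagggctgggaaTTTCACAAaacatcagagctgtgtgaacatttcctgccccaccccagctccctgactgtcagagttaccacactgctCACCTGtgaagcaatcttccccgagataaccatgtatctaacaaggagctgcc
*S100a11* (chr3:93520246-93520495, plus strand): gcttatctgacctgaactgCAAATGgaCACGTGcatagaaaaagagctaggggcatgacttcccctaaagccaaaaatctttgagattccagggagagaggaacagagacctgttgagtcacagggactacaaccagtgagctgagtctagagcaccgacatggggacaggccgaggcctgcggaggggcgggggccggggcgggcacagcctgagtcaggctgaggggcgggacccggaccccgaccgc
*S100a4* (chr3:90603520-90603769, plus strand): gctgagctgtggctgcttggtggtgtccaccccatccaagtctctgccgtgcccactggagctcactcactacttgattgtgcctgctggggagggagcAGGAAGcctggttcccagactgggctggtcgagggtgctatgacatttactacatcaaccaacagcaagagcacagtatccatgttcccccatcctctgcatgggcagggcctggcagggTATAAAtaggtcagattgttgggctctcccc
The *S100a8* window held a TATAAA match that begins 30 bases before the start site, 1 C/EBP-type match, 3 E-boxes and 2 PU.1-type matches. The *S100a9* window held 2 C/EBP-type matches and 1 E-box. *S100a11* had 2 E-boxes, and *S100a6* (chr3:90612644-90612893) had 1 E-box and no other match. *S100a4* had a TATAAA match 31 bases before its start and 1 PU.1-type match. Of 32851 RefSeq promoter windows of the same length, 12.4% held TATAAA, 36.8% the C/EBP-type motif, 66.2% an E-box and 29.5% the PU.1-type motif. A match describes the letters only.

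*S100a8* and *S100a9* were the 2 highest genes by FPKM in 17 of 17 sorted libraries. *S100a8* led in 14 of them, and *S100a9* led in 3, which were the lung libraries of the tissue comparison. *S100a11* ranked 4 to 22 and *S100a6* ranked 24 to 118 among all genes of a sorted library. *S100a4* and *S100a10* were close to the limit of detection, with at most 21 and 16 reads in a library. Whole lung had another order, with *S100a11* the highest of the 6 (rank 42 to 50) and *S100a10* (rank 350 to 482) above *S100a8* (rank 1017 to 6253) in every library.

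**Figure D1:**
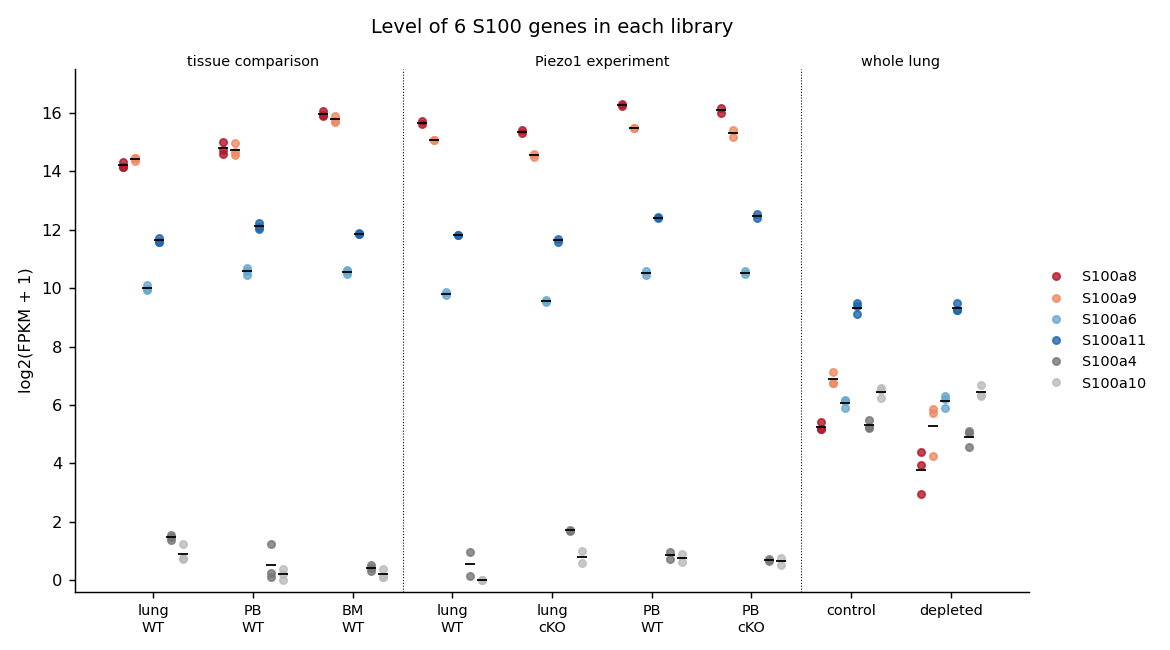
Level of the 6 S100 genes in each of the 23 libraries as log2(FPKM + 1), by group; each point is a library and each bar the mean of its group. *S100a8* and *S100a9* top every sorted group, *S100a11* and *S100a6* lie between them and *S100a4* and *S100a10*, and the 6 genes are closer together in whole lung; the 3 experiments are separate tables.

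The tissue comparison asked how neutrophils of lung, PB and BM differ. *S100a8* was at 69454, 60542 and 62874 FPKM in BM, at 27570, 24803 and 33120 FPKM in PB and at 20550, 18028 and 18122 FPKM in lung. The order was BM above PB above lung, and no library of one tissue reached the range of another. *S100a8* fell from BM to lung by 1.77 on the log2 scale of FPKM + 1 (SE 0.06, adjusted p = 2.16e-09 by limma over all genes), a level 3.40-fold lower. It fell from BM to PB by 1.18 (SE 0.12, limma adjusted p = 4.78e-05). From PB to lung its log2 fold change was -0.58 (SE 0.11, limma adjusted p = 0.00138), which is under the fold change threshold of 1 used for sorted neutrophils.

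*S100a9*, the partner of *S100a8* in calprotectin, was at 61737, 53309 and 54048 FPKM in BM, at 25906, 24413 and 32232 FPKM in PB and at 22426, 20921 and 22340 FPKM in lung. Its order of tissues was that of *S100a8*, again without overlap. *S100a9* fell from BM to lung by 1.36 (SE 0.05, limma adjusted p = 5.49e-09) and from BM to PB by 1.04 (SE 0.12, limma adjusted p = 0.000112). The call between PB and BM was lost after rescaling (-0.88), by edgeR and DESeq2, with a common sum without the members, and without PB library 2 or BM library 1. Between PB and lung its log2 fold change was -0.32 (SE 0.11, limma adjusted p = 0.0212). In the same BM libraries, genes of immature granules summed to 34275 to 35420 FPKM against 524 to 745 FPKM in PB and 568 to 590 FPKM in lung, and cycling genes to 42.7 to 43.8 FPKM against at most 1.91 FPKM elsewhere. The part of these cells in the difference of *S100a8* and *S100a9* was not tested.

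*S100a11*, known as calgizzarin, was at 4330, 4170 and 4850 FPKM in PB, at 3831, 3663 and 3711 FPKM in BM and at 3372, 3098 and 3072 FPKM in lung. PB was highest and lung lowest, without overlap of the 3 tissues. The log2 fold change was -0.48 for lung against PB (SE 0.08), -0.23 for lung against BM (SE 0.03) and 0.25 for PB against BM (SE 0.08). *S100a6*, known as calcyclin, was at 1542, 1404 and 1640 FPKM in PB, at 1581, 1432 and 1524 FPKM in BM and at 1106, 979 and 1008 FPKM in lung. PB and BM overlapped (log2 fold change 0.01, SE 0.08, limma adjusted p = 0.88), and lung was below both, with log2 fold changes of -0.57 (SE 0.08) against PB and -0.55 (SE 0.05) against BM. Against BM, *S100a6* and *S100a11* thus differed less by FPKM than the calprotectin genes. Between lung and PB their log2 fold changes lay between those of *S100a8* (-0.58) and *S100a9* (-0.32). Neither *S100a6* nor *S100a11* passed the fold change threshold in any of the 3 comparisons.

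Sorted libraries of a group lay close to each other for the 4 abundant members, with a coefficient of variation of at most 15.1%, which was that of *S100a9* in PB. PB library 3 was the highest of its group for all 4.

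*S100a4*, known for its link to cell motility, had 17, 19 and 20 reads in the lung libraries, 15, 2 and 1 in PB and 4, 3 and 5 in BM. Lung was above BM and above PB, although 1 PB library came close to lung. *S100a4* rose from BM to lung by 1.04 (SE 0.08, limma adjusted p = 6.06e-07), and its log2 fold change from PB to lung was 0.94 (SE 0.27, limma adjusted p = 0.0107). Without BM library 2 the value for lung against BM was 1.00 and no longer above the threshold, and without PB library 1 the value for lung against PB was 1.29 and passed. *S100a10* had 16, 8 and 8 reads in lung, 2, 4 and 0 in PB and 4, 1 and 1 in BM. Lung was again the highest tissue for *S100a10* in this comparison, but the gene was too low to be tested, since fewer libraries than a group holds reached an FPKM of 1. Neither *S100a4* nor *S100a10* had a higher mean in lung than in PB among WT libraries of the *Piezo1* experiment.

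Counted over the members, 3 of 5 tested passed between lung and BM (1 higher and 2 lower in lung), where 45.9% of all tested genes passed. Between PB and BM 2 of 4 passed, both lower in PB, against 22.0% of all genes. Between lung and PB 0 of 5 passed by limma, against 27.2% of all genes, while 5 of 5 had an unadjusted p below 0.05 and both edgeR and DESeq2 on the recovered reads called 1, *S100a4*. Without a fold change threshold, by the adjusted p alone, 5 of 5 members passed between lung and PB (85.5% of all genes), 5 of 5 between lung and BM (92.6%) and 3 of 4 between PB and BM (73.1%). These shares are those of a transcriptome in which most genes differ between tissues. The comparisons share libraries, so their results are not independent of each other.

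The level of a single gene hung on the scale of the libraries, because the median gene itself shifted by -0.54 between lung and PB, by -0.70 between lung and BM and by -0.12 between PB and BM. Relative to the median gene, *S100a8* differed by -0.05 and *S100a9* by 0.22 between lung and PB. Rescaled by the median ratio of all genes, the lung against PB log2 fold changes turned positive for *S100a8* (0.07), *S100a9* (0.33), *S100a6* (0.09) and *S100a11* (0.17), with *S100a9* past the adjusted p (0.0486) and under the fold change threshold. Between lung and BM, *S100a8* (-0.95) and *S100a9* (-0.55) stayed lower in lung on that scale but under the threshold, whereas *S100a6* (0.26) and *S100a11* (0.58) turned higher. *S100a4* was higher in lung on both scales, and after rescaling it passed against PB (1.31) as well as against BM (1.45). Between PB and BM *S100a8* passed on both scales (-1.02 after rescaling) and *S100a9* did not (-0.88).

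The share of total FPKM sets the members against the rest of the library. *S100a8* and *S100a9* together took 25.7, 23.3 and 23.8% of the total FPKM in BM, 12.9, 12.1 and 14.9% in PB and 10.2, 9.48 and 9.82% in lung. Tissues did not overlap, and the difference in means was -14.4 percentage points for lung against BM, -11 for PB against BM and -3.47 for lung against PB. Each gave p = 0.1 in a two-sided exact permutation test, the smallest p that 3 against 3 libraries allow, and 0.1 after adjustment over 4 comparisons. *S100a8* and *S100a9* are short genes (392 and 524 bases in these tables), and the same pair took 5.17 to 5.96% of reads in BM, 2.25 to 2.99% in PB and 1.80 to 1.98% in lung. Shares of reads gave the same order of tissues without overlap. That order was fixed by the FPKM, since a share of reads follows from FPKM and gene length, so it adds no support. With the other 4 members added, the 6 genes held 24.3 to 26.8% of total FPKM in BM, 13.5 to 16.4% in PB and 10.5 to 11.3% in lung.

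**Figure D2:**
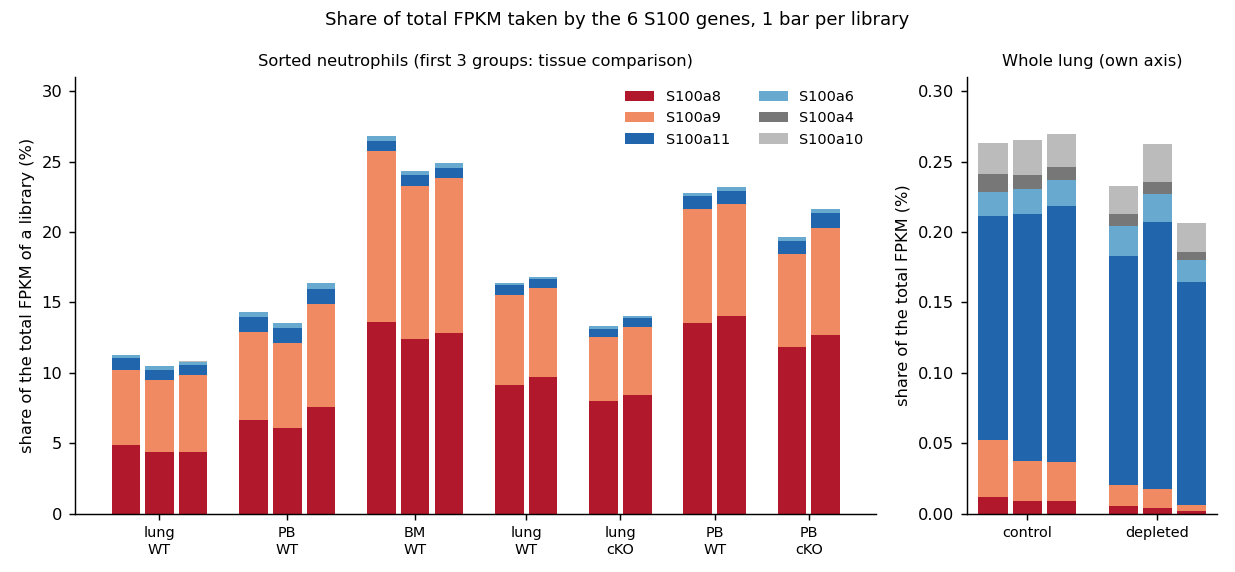
Share of the total FPKM of each library taken by the 6 S100 genes, stacked by gene, with 1 bar per library; the right panel shows whole lung on an axis of its own. *S100a8* and *S100a9* make up most of each bar in sorted neutrophils, from 9.48% of the total in lung to 25.7% in BM, whereas *S100a11* makes up most of each bar in whole lung.

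The ratio of *S100a8* to *S100a9* in a library does not depend on how the library is scaled. It was 1.13, 1.14 and 1.16 in BM, 1.06, 1.02 and 1.03 in PB and 0.916, 0.862 and 0.811 in lung. The balance thus moved from *S100a8* towards *S100a9* in the order BM, PB, lung, without overlap of tissues. In WT of the *Piezo1* experiment lung (1.43 and 1.55) was again below PB (1.69 and 1.77). Each of those libraries lay above every library of the tissue comparison, so the ratio also varied between experiments. The cause was not tested. On the log2 scale the ratio differed by -0.40 between lung and BM, by -0.26 between lung and PB and by -0.14 between PB and BM, each with p = 0.1 in a two-sided exact permutation test (0.133 after adjustment over 4 comparisons, with 0.1 the smallest p possible).

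**Figure D3:**
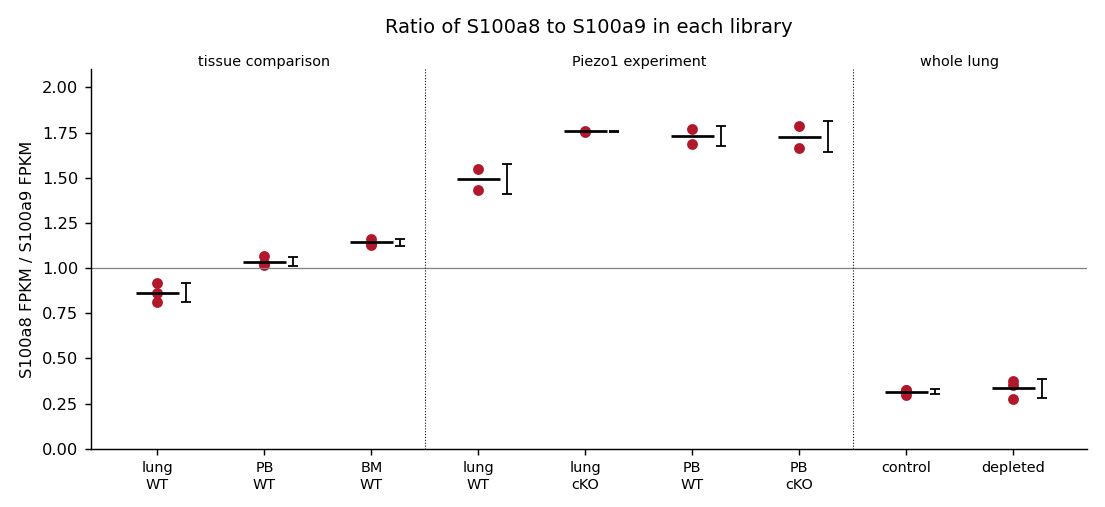
Ratio of *S100a8* FPKM to *S100a9* FPKM in each library, with the mean as a bar and the SD as a bracket; the grey line marks equal FPKM. Within the tissue comparison the ratio is lowest in lung (0.811 to 0.916) and highest in BM (1.13 to 1.16), and it is 0.276 to 0.372 in whole lung.

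The *Piezo1* experiment asked whether *Piezo1*, a mechanically gated cation channel, shapes the transcriptome of neutrophils in lung and PB. In lung, *S100a9* was at 34901 and 34620 FPKM in WT and at 23098 and 24772 FPKM in *Piezo1*-cKO. Both *Piezo1*-cKO libraries lay below both WT libraries, at 68.9% of the WT mean. The log2 fold change was -0.54 (SE 0.03, limma adjusted p = 0.000216), past the adjusted p and under the fold change threshold. *S100a8* was at 50012 and 53671 FPKM in lung WT and at 40639 and 43412 FPKM in lung *Piezo1*-cKO, 81.1% of the WT mean, with a log2 fold change of -0.30 (SE 0.04, limma adjusted p = 0.00308).

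*S100a6* and *S100a11* lay on the same side in lung. *S100a6* was at 874 and 923 FPKM in WT and at 736 and 766 FPKM in *Piezo1*-cKO (log2 fold change -0.26, SE 0.03, limma adjusted p = 0.000807). *S100a11* was at 3649 and 3591 FPKM in WT and at 3099 and 3297 FPKM in *Piezo1*-cKO (log2 fold change -0.18, SE 0.03, limma adjusted p = 0.00298). The 4 abundant members were thus lower in both *Piezo1*-cKO libraries than in both WT libraries, while the median gene shifted by 0.09. The share of all genes that separated in this way was not counted, and 50.7% of all genes passed the adjusted p alone. *S100a4* went the other way, with 9 and 1 reads in WT and 21 and 20 in *Piezo1*-cKO. It rose by 1.14 (SE 0.26, limma adjusted p = 0.0161), a call that was lost without lung WT library 2 (0.73), by DESeq2 (adjusted p = 0.0574), with a pseudocount of 0.1 (adjusted p = 0.0509) and without the filter (adjusted p = 0.0582). *S100a10* had 0 and 0 reads in lung WT, which allows up to 3 reads in each, and 10 and 5 in lung *Piezo1*-cKO, too few to be tested.

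*S100a4* was thus the member called of 5 tested between lung *Piezo1*-cKO and lung WT, where 0.995% of all genes passed. With the adjusted p alone 5 of 5 passed, against 50.7% of all genes. In the same libraries, monocyte and macrophage markers summed to 222 to 228 FPKM in *Piezo1*-cKO and to 213 to 215 FPKM in WT, and epithelial markers to 3.26 to 4.0 FPKM and to 6.03 to 6.65 FPKM. Immature granule genes summed to 1164 to 1166 FPKM in *Piezo1*-cKO and to 888 to 905 FPKM in WT, with 0 of 4 tested called. The part of these RNAs in these differences was not tested.

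In PB *S100a8* was at 78314 and 81892 FPKM in WT and at 66040 and 73439 FPKM in *Piezo1*-cKO (log2 fold change -0.20, SE 0.05, limma adjusted p = 0.0189). *S100a9* was at 46365 and 46322 FPKM in WT and at 36939 and 44065 FPKM in *Piezo1*-cKO (log2 fold change -0.20, SE 0.08, limma adjusted p = 0.0654). The genotypes did not overlap for either gene, but the *Piezo1*-cKO libraries were spread over a wide range. *S100a6* was at 1383 and 1526 FPKM in WT and at 1424 and 1536 FPKM in *Piezo1*-cKO, and *S100a11* at 5433 and 5492 FPKM and at 5441 and 5981 FPKM. Both overlapped between genotypes. *S100a4* had 8 and 6 reads in WT and 4 and 5 in *Piezo1*-cKO, and *S100a10* had 5 and 9 and 3 and 7.

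By limma 0 of 4 tested members passed between *Piezo1*-cKO and WT in PB, where 3.65% of all genes passed, and 2 of 4 had an unadjusted p below 0.05, while edgeR and DESeq2 called 0. *S100a8* was the 1 of 4 that passed the adjusted p alone, against 49.7% of all genes. The PB *Piezo1*-cKO libraries also held erythroid markers at 1011 to 1136 FPKM against 24.8 to 26.7 FPKM in PB WT, with 5 of 6 markers called higher, and immature granule genes at 2799 to 2932 FPKM against 1758 to 1787 FPKM, with 0 of 4 tested called. The part of such RNA in the S100 values was not tested.

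The interaction of genotype and tissue tested whether the difference between *Piezo1*-cKO and WT was unlike in lung and PB. *S100a4* was called (1.30, SE 0.32, limma adjusted p = 0.0101), the 1 of 5 tested against 6.85% of all genes. Without lung WT library 2 its value was 0.88 and under the threshold, and by DESeq2 the adjusted p was 0.116. By the adjusted p alone 4 of 5 passed, against 48.2% of all genes. These were *S100a4*, *S100a9* (-0.34, SE 0.10), *S100a6* (-0.29, SE 0.08) and *S100a11* (-0.24, SE 0.06), the last 3 with a lower value of *Piezo1*-cKO against WT in lung than in PB. For *S100a8* the interaction was -0.10 (SE 0.08, limma adjusted p = 0.304), and after rescaling it was -0.23 and past the adjusted p (0.0367).

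*S100a8* and *S100a9* together took 15.5 and 16% of total FPKM in lung WT, 12.5 and 13.2% in lung *Piezo1*-cKO, 21.6 and 22.0% in PB WT and 18.4 and 20.3% in PB *Piezo1*-cKO. PB was above lung in each genotype, and *Piezo1*-cKO was below WT in each tissue. By FPKM too, *S100a8* and *S100a9* each ran from PB WT through PB *Piezo1*-cKO and lung WT to lung *Piezo1*-cKO, without overlap of neighbours in that order. The ratio of *S100a8* to *S100a9* was 1.43 and 1.55 in lung WT, 1.76 and 1.75 in lung *Piezo1*-cKO, 1.69 and 1.77 in PB WT and 1.79 and 1.67 in PB *Piezo1*-cKO. Lung WT was the lowest of the 4 groups, and the other 3 overlapped. With 2 libraries per group these shares and ratios are given without a test.

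Lung and PB of the *Piezo1* experiment stand in separate tables, each scaled within its libraries, and the WT groups give the tissue comparison a further set of libraries. Among WT libraries the log2 fold change of lung against PB was -0.63 for *S100a8* (SE 0.03), -0.41 for *S100a9* (SE 0.01), -0.69 for *S100a6* (SE 0.05) and -0.59 for *S100a11* (SE 0.01), around a median gene at -0.62. The higher lung level of *S100a4* and *S100a10* in the tissue comparison did not recur in these WT libraries. *S100a4* had 9 and 1 reads in lung WT and 8 and 6 in PB WT. *S100a10* had 0 and 0 reads in lung WT and 5 and 9 in PB WT, and both genes were too low to be tested. By limma 0 of 4 tested members passed, against 34.0% of all genes, and 4 of 4 had an unadjusted p below 0.05 while edgeR and DESeq2 called 0. On the adjusted p alone 4 of 4 passed, against 89.0% of all genes. As in the tissue comparison, the sign hung on the scale: rescaled by the median ratio, the values were 0.10 for *S100a8*, 0.31 for *S100a9*, 0.04 for *S100a6* and 0.13 for *S100a11*.

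In *Piezo1*-cKO mice the log2 fold changes of lung against PB were -0.73 for *S100a8* (SE 0.06), -0.75 for *S100a9* (SE 0.08), -0.98 for *S100a6* (SE 0.05) and -0.84 for *S100a11* (SE 0.05) around a median gene at -0.54. Rescaled by the median ratio they stayed negative, at -0.13, -0.15, -0.37 and -0.23 in that order. *S100a4* rose by 1.01 (SE 0.09, limma adjusted p = 6.30e-05), and it was the 1 of 5 tested members called, against 30.9% of all genes. Leaving out 1 of 2 libraries leaves that group with a single library, whose spread is then assumed to be that of the others. Without PB *Piezo1*-cKO library 2 the *S100a4* value was 0.97 and 0 members were called, and without lung *Piezo1*-cKO library 2 or PB *Piezo1*-cKO library 1, *S100a6* joined it (-1.01 and -1.03). By the adjusted p alone 5 of 5 passed, against 84.5% of all genes.

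**Figure D4:**
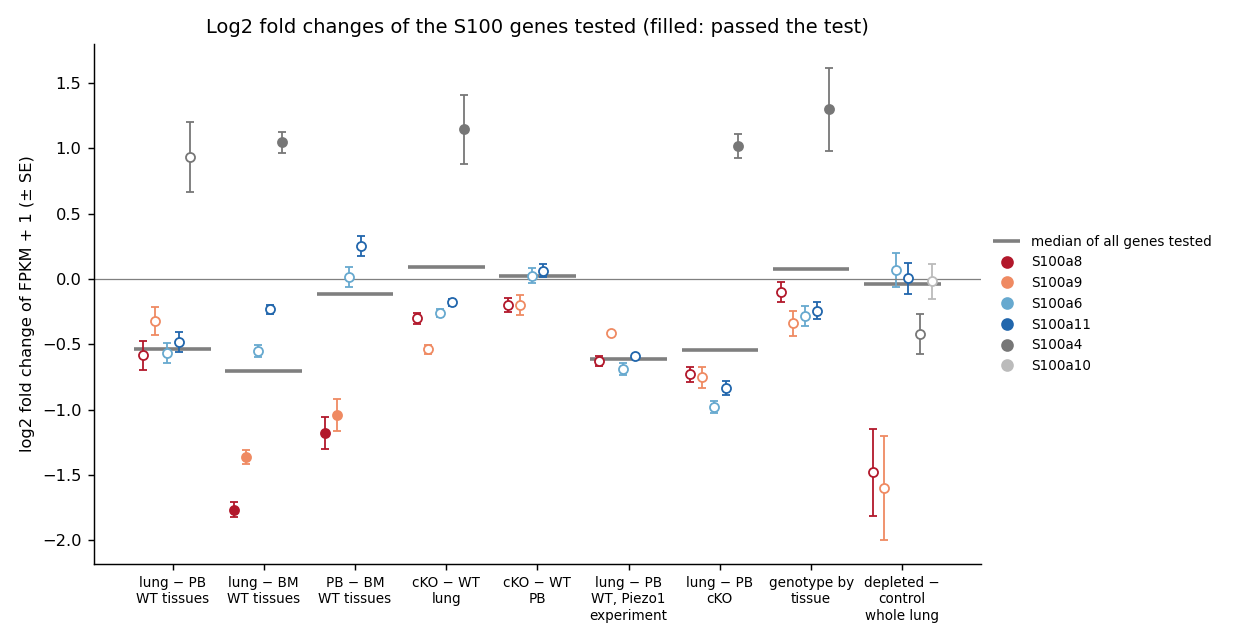
Log2 fold changes of FPKM + 1 with their SE for the S100 genes tested in the 9 comparisons; filled points passed the adjusted p and the fold change threshold, and grey bars mark the median of all genes tested. *S100a8* and *S100a9* pass between lung or PB and BM, *S100a4* passes in 4 comparisons, and most open points of the lung against PB comparisons lie near the grey bar.

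The depletion experiment asked what the loss of neutrophils does to the lung as a whole. *S100a8* was at 41.2, 35.0 and 35.1 FPKM in control lungs and at 20.2, 14.3 and 6.78 FPKM in depleted lungs. Groups did not overlap, and the depleted mean was 37.1% of the control mean. *S100a9* was at 138, 107 and 108 FPKM in control lungs and at 57.0, 52.0 and 18.2 FPKM in depleted lungs, 36.0% of the control mean, again without overlap. Depleted library 3 was the lowest for both genes. The log2 fold change was -1.48 for *S100a8* (SE 0.33, limma adjusted p = 0.192) and -1.60 for *S100a9* (SE 0.40, limma adjusted p = 0.231), so neither passed, although the unadjusted limma p was 0.00274 and 0.00498. In bulk tissue, fewer cells of a type and less RNA per cell cannot be told apart.

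*S100a4* was at 43.3, 37.3 and 36.1 FPKM in control and at 31.8, 33.1 and 22.4 FPKM in depleted lungs, 74.8% of the control mean without overlap (log2 fold change -0.42, SE 0.15, limma adjusted p = 0.371). *S100a6*, *S100a10* and *S100a11* overlapped between groups. *S100a6* was at 58.7, 69.6 and 71.2 FPKM in control and at 78.6, 72.6 and 58.7 FPKM in depleted lungs (log2 fold change 0.07, SE 0.13). *S100a10*, the partner of annexin A2, was at 75.3, 94.7 and 90.7 FPKM and at 77.4, 101.6 and 79.2 FPKM (log2 fold change -0.02, SE 0.13). *S100a11* was at 551, 669 and 714 FPKM and at 616, 713 and 604 FPKM (log2 fold change 0.00, SE 0.12).

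Of the 6 members 0 passed by limma at a log2 fold change beyond 0.5 in either direction with an adjusted p under 0.05, and 3 (*S100a8*, *S100a9* and *S100a4*) had an unadjusted p below 0.05. Over all genes 0.00715% passed, which is 1 of 13990, and 1570 genes had an unadjusted p below 0.05. Count models were not run, since reads could not be recovered from this table. *S100a8* and *S100a9* together took 0.0520, 0.0373 and 0.0364% of total FPKM in control and 0.0204, 0.0177 and 0.00654% in depleted lungs, a difference in means of -0.0270 percentage points (p = 0.1, two-sided exact permutation test, the smallest possible). The ratio of *S100a8* to *S100a9* was 0.298, 0.326 and 0.326 in control and 0.354, 0.276 and 0.372 in depleted lungs, which overlapped (log2 difference 0.07, exact permutation p = 0.6). The ratio was below that of any sorted library, with the reservation that the tables were made separately.

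Of 4 tested neutrophil markers in the same lungs 0 passed by limma, and all 4 had an unadjusted p below 0.05. The depleted mean as a share of the control mean was 27.4% for *Csf3r* (limma adjusted p = 0.129), 36.3% for *Cxcr2* (0.223), 42.2% for *Retnlg* (0.273) and 62.4% for *Mmp8* (0.426). *Ly6g* was too low to be tested, at 0.0683, 0.577 and 0.0710 FPKM in control and 0.0748, 0 and 0.118 FPKM in depleted lungs, which overlapped. The summed level of 5 of the 6 neutrophil markers was 55.0 to 75.1 FPKM in control and 13.4 to 39.1 FPKM in depleted lungs. B cell markers also had a lower sum in depleted lungs (31.4 to 67.4 FPKM against 80.4 to 85.6 FPKM), whereas monocyte and macrophage markers summed to 69.6 to 84.5 FPKM against 84.0 to 85.9 FPKM. The part of these cells in the S100 values was not tested.

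**Figure D5:**
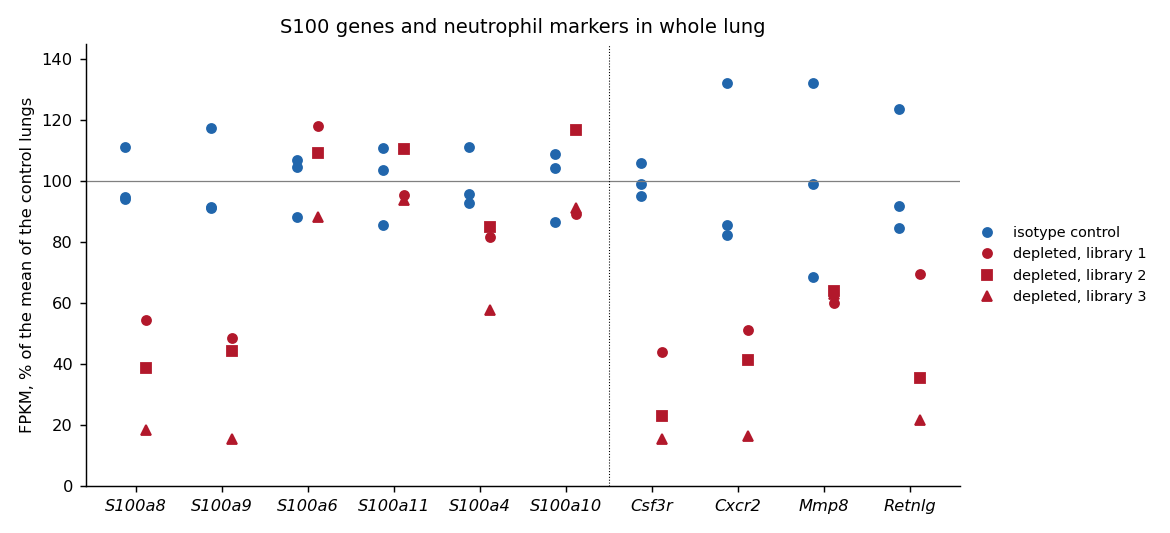
FPKM of the 6 S100 genes and of 4 neutrophil markers in each whole lung library as a percentage of the mean of the control lungs; the marker shape gives the depleted library, and *Ly6g* is too low to be plotted. For *S100a8*, *S100a9*, *S100a4*, *Csf3r*, *Cxcr2*, *Retnlg* and *Mmp8* all depleted lungs lie below all control lungs, with depleted library 3 lowest for *S100a8* and *S100a9* (18.3 and 15.5%), while *S100a6*, *S100a11* and *S100a10* overlap. None of the genes shown passed by limma, and the share of all genes that separate in this way was not counted.

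Among 10 other S100 genes, few were detected in neutrophils. *S100a13* was the highest of them, at 22.4 ± 1.78 FPKM in BM, 9.96 ± 2.66 in PB and 5.03 ± 0.373 in lung (SD, n = 3). Between lung and BM 2 of 2 tested fell, *S100a13* (-1.96) and *S100a1* (-1.92), and between PB and BM the same 2 genes fell (-1.12 and -1.88), in both cases against the shares of all genes given above. Between lung and PB 0 of 1 passed. Between *Piezo1*-cKO and WT in PB 1 of 3 tested was called lower, *S100a1*, where 3.65% of all genes passed. It had 21 and 22 reads in WT and 0 and 0 in *Piezo1*-cKO, which is at least 5.84-fold lower against a floor of 3 reads per library. *S100a1* had 10 and 16 reads in lung WT and 15 and 8 in lung *Piezo1*-cKO. Its interaction was called (1.72, SE 0.24, limma adjusted p = 0.000661), the 1 of 3 tested, against 6.85% of all genes. In whole lung 0 of 6 tested passed.

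Of 9 intracellular partners, 9 were tested in the tissue comparison. The median partner differed by -0.49 between lung and PB, close to the median of all genes (-0.54). There 1 passed, against 27.2% of all genes: *Cacybp*, which encodes the calcyclin-binding protein and was lower in lung (-1.12). Between lung and BM 2 rose and 3 fell, where 45.9% of all genes passed, including *Anxa1*, the partner of S100A11, at 507 ± 15.7 FPKM in lung and 2650 ± 60.5 FPKM in BM (SD, n = 3), a log2 fold change of -2.38. *Myh9*, the heavy chain bound by S100A4, (-1.20) and *Anxa5* (-2.88) fell as well, whereas *Anxa6* rose by 1.04. Between PB and BM, where 22.0% of all genes passed, 2 rose (*Ahnak* by 1.46 and *Anxa6* by 1.33) and 2 fell (*Anxa1*, -1.57, and *Anxa5*, -2.37). In the *Piezo1* experiment *Cacybp* was again called lower in lung than in PB (-1.21 in WT and -1.46 in *Piezo1*-cKO), and in *Piezo1*-cKO *Myh9* was called higher (1.25). *Myh9* was at a mean of 16.3 FPKM in lung and 6.26 FPKM in PB of *Piezo1*-cKO. In the tissue comparison its level was far higher, at 278 FPKM in lung and 391 FPKM in PB. There *Myh9* was lower in lung by FPKM but not called, in a comparison whose median gene was at -0.54. Between *Piezo1*-cKO and WT 0 of 8 tested passed in lung and 0 of 8 in PB, and 6 of 8 and 5 of 8 were higher by the adjusted p alone, which 50.7% and 49.7% of all genes passed in either direction, with medians of 0.34 and 0.31 against 0.09 and 0.02 for all genes.

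Receptors and adaptors for extracellular S100A8 and S100A9 differed in direction. *Cd14*, the TLR4 co-receptor, was at 3899 ± 71.3 FPKM in lung, 160 ± 11.9 FPKM in PB and 11 ± 0.288 FPKM in BM (SD, n = 3), a rise of 4.60 from PB to lung and of 3.74 from BM to PB. In the lung against PB comparison, where 27.2% of all genes passed, *Cd14* was the 1 of 7 tested that rose. *Tlr4* (-1.45), *Myd88* (-1.05) and *Ager* (-2.12), which encodes RAGE, were called lower. Over all genes 587 were called higher and 1476 lower there. The sign of *Cd14* and *Tlr4* was that of the *Piezo1* experiment, where *Cd14* rose by 4.60 in WT and by 4.94 in *Piezo1*-cKO and the values of *Tlr4* were -1.39 and -1.33, both called. *Myd88* was called lower there too (-1.38 and -1.17), and in *Piezo1*-cKO so was *Ly96*, which encodes MD-2 (-1.02). Of all genes 34.0% passed in WT and 30.9% in *Piezo1*-cKO. Between lung and BM, where 45.9% of all genes passed, *Cd14* rose by 8.34, and *Mcam* (-2.0) and *Ager* (-1.71) fell. Between PB and BM, where 22.0% of all genes passed, *Myd88* rose by 1.37 and *Mcam* fell by 1.46. The shift of the median gene was smaller than 1 in each lung comparison. Subtracting it could therefore not change the sign of a partner or receptor called there. This follows from the threshold of 1 alone and does not keep a call. With the median gene (-0.54) subtracted, *Tlr4*, *Myd88* and *Cacybp* in lung against PB would be under the threshold, and *Cd14* and *Ager* beyond it. Between genotypes 0 receptors passed in lung (6 tested) or in PB (7 tested) by limma, and 4 in each passed the adjusted p alone, against 50.7% and 49.7% of all genes. In whole lung 0 of 9 partners and 0 of 8 receptors passed by limma.

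For each member the 3 genes of most similar pattern were found over the 9 libraries of the tissue comparison, by the root mean square difference of log2(FPKM + 1) centred on the mean of each gene, among 4484 genes with a mean of at least 10 FPKM. *Lgals3*, which encodes galectin-3, was nearest to *S100a8* (0.0678), followed by *Rab28* (0.0694) and *Mgst1* (0.0793). *S100a9* differed from *S100a8* by 0.174, and its own nearest genes were *H2afz* (0.0934), *Atp5k* (0.0965) and *Psmb6* (0.0970). Nearest to *S100a6* was *Rbbp4* (0.0516) and to *S100a11* the ribosomal protein gene *Rpl29* (0.0412). Over the 8 libraries of the *Piezo1* experiment the differences were larger for these pairs, at 0.141 for *S100a8* and *Lgals3*, 0.330 for *S100a9* and *H2afz*, 0.488 for *S100a6* and *Rbbp4* and 0.223 for *S100a11* and *Rpl29*. *S100a8* and *S100a9* were nearer to each other there (0.105) than in the tissue comparison. *S100a4* and *S100a10* rest on too few reads for a pattern, with nearest genes at 0.243 (*Tox4*) and 0.123 (*Id1*).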

How the data were processed

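Bulk RNA-Seq of sorted neutrophils and whole lung was used as deposited. The authors trimmed paired-end reads with fastp, aligned them with HISAT2 and counted them with HTSeq (versions not given in the sources used here), and deposited FPKM per gene and library. Whole lung FPKM are not whole reads times gene and library factors, and how they were estimated is not given in the sources used here. For the *Piezo1* experiment the authors deposited in addition 1 signal value for each gene and group (reads scaled by DESeq2 size factors and averaged), and it served only as a check of recovered reads. Columns with the authors' fold changes, p values and q values were not used. The sum of FPKM over all genes of a library ran from 405491 to 509864 (tissue comparison), 508225 to 583510 (*Piezo1* experiment) and 345075 to 391908 (whole lung), that is, it was not held constant.

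Groups follow the labels. Each comparison was tested by limma 3.58.1 (R 4.3.3; trend and robust) on log2(FPKM + 1) over every gene that reached FPKM 1 in as many libraries as the smaller group holds, with Benjamini-Hochberg adjustment over all genes tested. A gene was called at a log2 fold change beyond 1 in either direction (0.5 in whole lung) with an adjusted p under 0.05. On this scale the change of low genes is understated. Whole reads were recovered from FPKM steps for the 17 sorted libraries, in which 100.0% of values were whole. Shares and ratios were tested by two-sided exact permutation tests. Limits from a count of 0 (3 reads) cover counting error only, since reads carry no molecular identifiers. Alternatives were edgeR 4.0.16 and DESeq2 1.42.0 on recovered reads, a pseudocount of 0.1, no filter, rescaling by the median ratio, a common sum without the members, the adjusted p alone, a replicate block, all libraries in 1 fit, and each library left out. The fits were tested on simulated data.

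The 6 members and the lists of other S100 genes, partners, receptors and cell type markers were chosen with earlier results of these data known. Named genes are the members, at most 4 called genes of a list per comparison with the highest mean FPKM, and the 3 genes nearest to a member. The symbols of 27 genes turned into dates by a spreadsheet were restored by gene identifier. Promoters are those of RefSeq on GRCm38.p6. Gene lengths are those implied by FPKM and reads. Reads of paralogous or overlapping S100 genes could be split by the counting, and strand use is not given in the sources used here.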

Additional observations from a re-analysis of the deposited data

Results flagged for a closer look

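The difference between *Piezo1*-cKO and WT was unlike in lung and PB for 4 of 5 tested members and 1 of 3 tested other S100 genes. The test was the interaction term of limma at an adjusted p below 0.05, which 48.2% of all genes passed. The interaction was 1.30 for *S100a4* (limma adjusted p = 0.0101) and 1.72 for *S100a1* (limma adjusted p = 0.000661), both on few reads. It was -0.34 for *S100a9* (limma adjusted p = 0.0196), -0.29 for *S100a6* (limma adjusted p = 0.0141) and -0.24 for *S100a11* (limma adjusted p = 0.012), each an abundant transcript. *S100a4* and *S100a1* also passed the fold change threshold of 1, and the other 3 did not. The call of *S100a4* was lost by DESeq2 (adjusted p = 0.116) and without lung WT library 2 (0.88). *S100a2*, which is outside the lists, passed as well and is described among the other observations. In the same libraries erythroid markers summed to 1011 to 1136 FPKM in PB *Piezo1*-cKO and to at most 26.7 FPKM in the other 3 groups, immature granule genes summed to 2799 to 2932 FPKM in PB *Piezo1*-cKO and to 888 to 1787 FPKM in the other 3, and their part in these differences was not tested.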

How the results depend on the processing

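Of the members' log2 fold changes, 499 values under an alternative kept direction and side of the threshold, 31 newly passed, 20 no longer passed and 46 changed sign. The adjusted p alone is counted among these alternatives. It keeps the fold change and drops the threshold, so it could only add values that passed. Of the 46 that changed sign, 16 had no adjusted p below 0.05 on either side. They were values of *S100a6* for PB against BM (-0.0387 to 0.0734 when single libraries were left out), *S100a6* (-0.045 to 0.0965, and -0.0055 by edgeR) and *S100a11* (-0.0058 to 0.13) for *Piezo1*-cKO against WT in PB, and, for depletion, *S100a6* (-0.0205 to 0.19), *S100a11* (-0.105 to 0.0819, and -0.0209 with the common sum) and *S100a10* (-0.14 to 0.0518, and 0.0357 after rescaling). The other 30 came from rescaling by the median ratio, edgeR or DESeq2 (in that order below), and the cause was not tested beyond the shift of the median gene. For lung against PB they were 0.0685, 0.0301 and 0.0489 for *S100a8*, 0.33, 0.29 and 0.31 for *S100a9*, 0.0858, 0.0552 and 0.0737 for *S100a6*, and 0.17, 0.14 and 0.16 for *S100a11*. For lung against BM they were 0.26, 0.25 and 0.30 for *S100a6* and 0.58, 0.57 and 0.62 for *S100a11*. For lung against PB in WT of the *Piezo1* experiment they were 0.10, 0.0909 and 0.12 for *S100a8*, 0.31, 0.30 and 0.33 for *S100a9*, 0.0352, 0.0235 and 0.0499 for *S100a6*, and 0.13, 0.13 and 0.15 for *S100a11*. The number of members called for lung against PB went from 0 to 1 with a pseudocount of 0.1, rescaling, edgeR and DESeq2, and for lung against BM from 3 to 1 with rescaling, edgeR and DESeq2, *S100a4* being the member called in each. For PB against BM it went from 2 to 1 (*S100a8*) with rescaling, the common sum, edgeR and DESeq2. For *Piezo1*-cKO against WT in lung it went from 1 to 0 with a pseudocount of 0.1, no filter and DESeq2, and for the interaction from 1 to 0 with DESeq2. By the adjusted p alone, the counts were 5 for lung against PB, 5 for lung against BM, 3 for PB against BM, 5 and 1 for *Piezo1*-cKO against WT in lung and PB, 4 and 5 for lung against PB in WT and *Piezo1*-cKO of that experiment, and 4 for the interaction. Leaving out single libraries gave 0 to 1 member for lung against PB, 2 to 3 for lung against BM, 1 to 2 for PB against BM, 0 to 1 for *Piezo1*-cKO against WT in lung, 0 to 0 in PB, 0 to 0 and 0 to 2 for lung against PB in WT and *Piezo1*-cKO, 0 to 1 for the interaction and 0 to 0 in whole lung; the libraries that decide a call are lung WT 2, PB 1, PB 2, BM 1, BM 2, lung *Piezo1*-cKO 2, PB *Piezo1*-cKO 1 and PB *Piezo1*-cKO 2. The share of *S100a8* plus *S100a9* kept its direction in all 27 alternatives, and the log2 ratio of *S100a8* to *S100a9* in 26 of 27. The exception was the ratio in whole lung, where leaving out single libraries gave -0.0188 (without depleted library 3) to 0.20. These counts say little about stability, since leaving out a library cannot turn a difference between groups that do not overlap. Only the ratio in whole lung had groups that overlapped.

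Over all genes, the calls for lung against PB were 587 higher and 1476 lower by limma and 961 and 471 after rescaling, for lung against BM 812 and 2965 against 1557 and 1245, and for PB against BM 647 and 1164 against 768 and 895. For lung against PB of the *Piezo1* experiment they were 536 and 1893 against 930 and 656 in WT and 568 and 1644 against 928 and 576 in *Piezo1*-cKO. For *Piezo1*-cKO against WT in lung they were 51 and 13 against 40 and 34, and for the interaction 324 and 194 against 250 and 221. Totals moved by over 1.5 times for *Piezo1*-cKO against WT in lung (64 by limma, 332 with a pseudocount of 0.1, 345 by edgeR, 311 by DESeq2) and in PB (265, 672, 735 and 689, and 168 after rescaling), for the WT lung against PB of that experiment (2429, and 1586 after rescaling), for the interaction (518, 1211, 1271 and 1142) and for depletion (1, and 0 to 12 when single libraries were left out). Same-numbered libraries did not deviate together (correlations of -0.0890 to 0.0789, 0 of 20 pairs over 0.1), and the replicate block left the members called at 0, 3, 2, 1, 0, 0, 1, 1 and 0 in the 9 comparisons, with 5 genes against 1 for depletion. Count models were not run for whole lung. Depth limits *S100a4* and *S100a10*, which had at most 21 and 16 reads in a sorted library.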

Other observations

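*S100a2* lies within the locus of *S100a3*, so its few reads could be split with that gene by the counting. It is in none of the lists above and was chosen after its values were seen. It had 20 and 24 reads in lung WT neutrophils and 5 and 3 in lung *Piezo1*-cKO, with a limma log2 fold change of -1.60 (SE 0.13, adjusted p = 0.000204). In PB it had 5 and 1 reads in WT and 4 and 9 in *Piezo1*-cKO, and the interaction was -2.30 (adjusted p = 0.00141). In the tissue comparison *S100a2* had 7 to 8 reads in lung, 3 to 9 in PB and 12 to 19 in BM, so the level of lung WT in the *Piezo1* experiment was not seen in the lung libraries there, which stand in a separate table.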
